A study of Arabidopsis thaliana with 8 samples.

Results

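The genes described here are transporters that take mineral nutrients into Arabidopsis roots or move them into and out of the xylem. The set of 10 genes was given by name: PHO1, PHT1;1, PHT1;4, IRT1, NRT2.1, NRT1.1, NRT1.5, AMT1;1, SKOR and HKT1. Of these, 9 were among the 18855 genes listed in the deposited tables, and NRT2.1 (AT1G08090) was not analysed here. RNA from whole seedlings aged 12 days was sequenced in 8 libraries of 3 genotypes. The first genotype was 35S:SPCHΔ49 in the basl-2 background (3 libraries), the second was 35S:SPCHΔ49 in seedlings with normal BASL (3 libraries) and the third was wild type, WT (2 libraries). SPCHΔ49 is a form of the stomatal lineage factor SPEECHLESS with a deletion in the region that MAP kinases target, expressed from the constitutive 35S promoter, and basl-2 is a mutant allele of the polarity gene BASL. All seedlings were grown untreated on half-strength Murashige and Skoog medium at 22 °C with 16 h of light and 8 h of dark. The labels do not say whether libraries of a genotype came from separate plates or sowings, or whether a line came from 1 transformant, so the tests here reflect library-to-library spread, which may be technical.

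Roots take up phosphate, nitrate, ammonium and iron through plasma membrane transporters of the epidermis, root hairs and cortex, many of which are induced when the nutrient is scarce. Ions that reach the stele are then released into the xylem for transport to the shoot by a second set of transporters in pericycle and xylem parenchyma cells. PHT1;1 and PHT1;4 take up phosphate, IRT1 iron, NRT1.1 nitrate and AMT1;1 ammonium, whereas PHO1 exports phosphate, NRT1.5 nitrate and SKOR potassium to the xylem, and HKT1 retrieves sodium from it.

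Values are a TPM-like signal, which is an abundance per transcript length, so levels can be compared between genes within a library. How the authors scaled it is not stated, so comparisons between libraries rest on the deposited scale. Totals over the listed genes were 852202 to 1075376 and medians 12.3 to 13.6 per library. The number of reads behind a value is unknown. SPCH averaged 407.2 ± 74.9 in SPCHΔ49 basl-2, 2491 ± 136 in SPCHΔ49 and 6.925 ± 1.799 in WT (SD, n = 3, 3 and 2), so the transgenic lines also differed from each other in SPCH level. BASL averaged 2.74 ± 0.58 in SPCHΔ49 basl-2, 51.0 ± 13.7 in SPCHΔ49 and 3.43 ± 0.13 in WT, and SPCHΔ49 basl-2 against WT did not pass the limma test (adjusted p = 0.451). Whole seedlings include roots, and root markers were present in WT, but in both transgenic lines many were near 0. Of 6 listed root hair markers, all 6 were under 10% of their WT mean in SPCHΔ49 basl-2 and in SPCHΔ49, beside 3.64% and 3.54% of all genes. All 6 markers reached the listing level of the deposited tables, a signal of 1 in every library of a genotype, only in WT. They could thus be listed only as lower genes, and the count is a description of which markers were near 0. Their summed signal was 0.253 to 1.25 in SPCHΔ49 basl-2, 0.231 to 0.361 in SPCHΔ49 and 40.56 to 45.03 in WT.

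The xylem transporters and IRT1 were lower in both transgenic lines than in WT, by 1 to more than 4 units on the log2 scale, while NRT1.1, AMT1;1 and PHT1;4 kept levels that overlapped WT. Against WT, 5 of the 9 listed transporters fell in SPCHΔ49 basl-2, none rose, and 4 did not pass the test. Among all genes in that comparison 34.3% were called, with 12.6% higher and 21.6% lower. The same counts, 5 lower, none higher and 4 not passing, were found in SPCHΔ49 against WT, where 27.2% of all genes were called, with 9.90% higher and 17.3% lower. No transporter was higher than WT at an unadjusted p below 0.05 either. The 5 genes were PHO1, NRT1.5, SKOR, HKT1 and IRT1 in each comparison, which share the WT libraries. The median log2 fold change over the 9 genes was -1.799 in SPCHΔ49 basl-2 and -1.777 in SPCHΔ49, beside -0.06 and -0.01 over all genes. IRT1 and SKOR reached the listing level only in WT, so they could enter only as genes lower in the transgenic lines and add nothing to these counts or medians as evidence. Without them, 3 of 7 transporters fell in each line, and of the 17430 genes in all that did not owe their listing to WT alone, 17.4% fell in SPCHΔ49 basl-2 and 12.9% in SPCHΔ49. In seedling RNA, fewer cells of a type and less RNA per cell cannot be told apart. Calls are at an adjusted p below 0.05 from limma, two-sided, fitted to log2(signal + 1) over all genes.

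**Figure D1:**
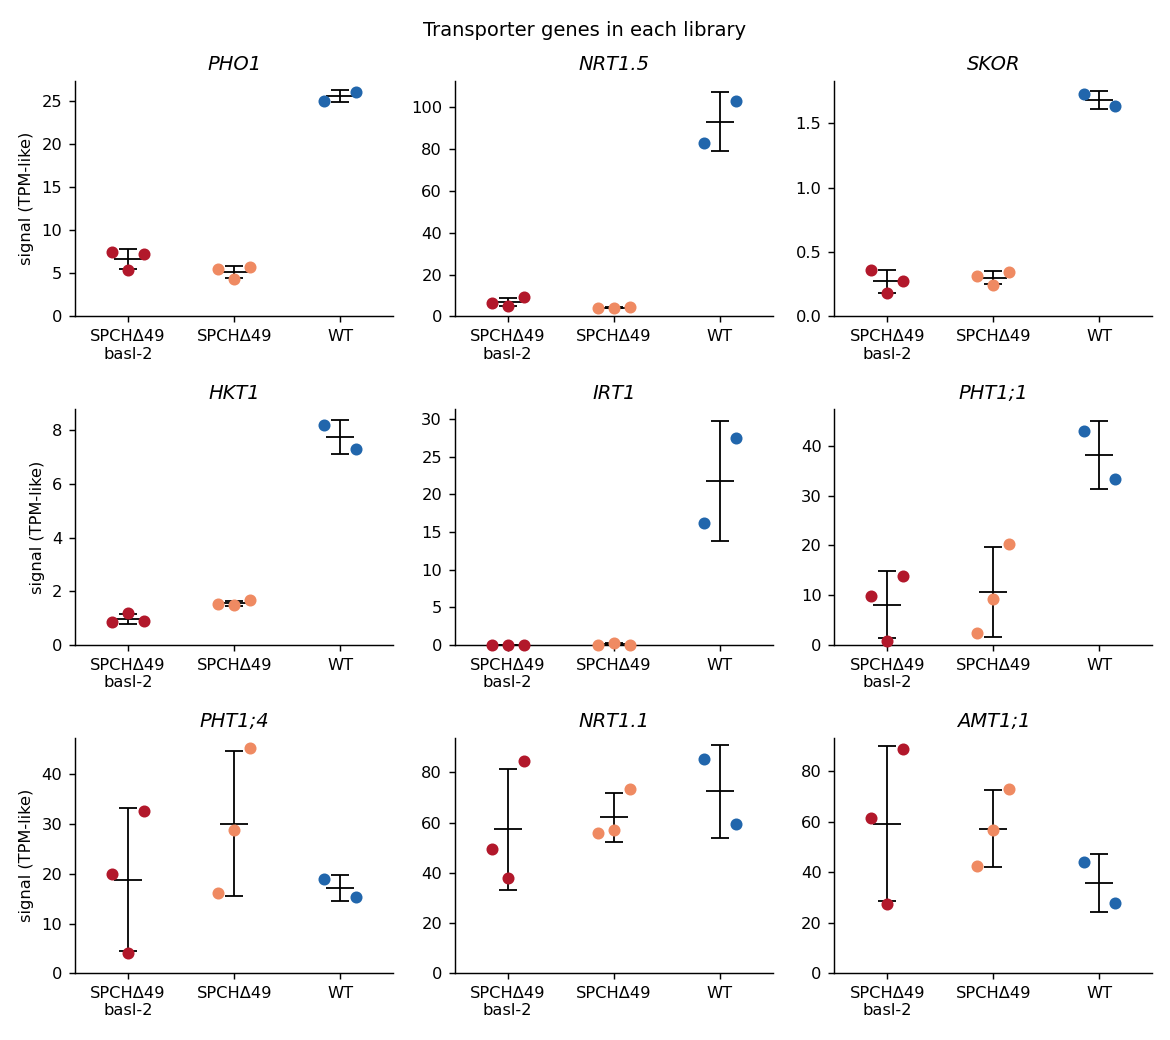
Signal (TPM-like, linear axes from 0) of the 9 listed transporters in each library of SPCHΔ49 basl-2, SPCHΔ49 and WT; points are libraries, the long bar is the mean and the whiskers are 1 SD (n = 3, 3 and 2). PHO1, NRT1.5, SKOR, HKT1 and IRT1 were called lower in both transgenic lines. SKOR and IRT1 reached the listing level only in WT and could be listed only as lower genes. PHT1;1, whose transgenic libraries ranged from 0.743 to 20.3, did not pass in either line.

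NRT1.5 (NPF7.3, AT1G32450; TAIR10.1 chromosome 1, 11715147 to 11719988, minus strand), which loads nitrate into the root xylem, was the most abundant of the 9 transcripts in WT by its mean, and its mean was below those of NRT1.1, AMT1;1, PHT1;4 and PHT1;1 in both transgenic lines. Its signal, in replicate order here and below, was 6.47, 5.10 and 9.20 in SPCHΔ49 basl-2, 3.89, 4.12 and 4.51 in SPCHΔ49, and 83.0 and 103.0 in WT. Every transgenic library was thus more than 9 times below the lower WT library. The means were 7.45% of WT in SPCHΔ49 basl-2 and 4.49% in SPCHΔ49. NRT1.5 fell by a log2 fold change of -3.59 ± 0.22 in SPCHΔ49 basl-2 (limma SE, adjusted p = 4.64e-05) and of -4.18 ± 0.22 in SPCHΔ49 (adjusted p = 2.41e-05). The gene overlaps 1 annotated gene on the opposite strand, and reads in that overlap cannot be assigned without strand information.

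PHO1 (AT3G23430; chromosome 3, 8387398 to 8393467, minus strand), the phosphate exporter of root stele cells, was low in both transgenic lines. It had 7.45, 5.34 and 7.28 in SPCHΔ49 basl-2, 5.48, 4.41 and 5.70 in SPCHΔ49, and 25.1 and 26.05 in WT. The 6 transgenic libraries differed among themselves by 1.69-fold at most, near the median of 1.61-fold over all genes above 0 in them. They did not overlap WT. The log2 fold change was -1.799 ± 0.16 in SPCHΔ49 basl-2 (limma adjusted p = 0.000325) and -2.11 ± 0.16 in SPCHΔ49 (adjusted p = 0.000151), which left 26.2% and 20.3% of the WT mean.

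HKT1 (AT4G10310; chromosome 4, 6391854 to 6395922, plus strand), which withdraws sodium from the xylem sap, had 0.859, 1.202 and 0.884 in SPCHΔ49 basl-2, 1.51, 1.48 and 1.67 in SPCHΔ49, and 8.21 and 7.30 in WT. All 3 SPCHΔ49 basl-2 values lay below all 3 SPCHΔ49 values, and both lines lay far below WT. HKT1 fell by a log2 fold change of -2.15 ± 0.13 in SPCHΔ49 basl-2 (limma adjusted p = 4.11e-05) and -1.78 ± 0.13 in SPCHΔ49 (adjusted p = 9.20e-05). SKOR (AT3G02850; chromosome 3, 619678 to 623739, minus strand), an outward potassium channel of the stele, was the scarcest of the 9 transcripts in WT. It had 0.360, 0.182 and 0.278 in SPCHΔ49 basl-2, 0.313, 0.248 and 0.342 in SPCHΔ49, and 1.73 and 1.63 in WT. The transgenic values stood at 16.2% and 17.9% of the WT mean. Its log2 fold change was -1.08 ± 0.11 in SPCHΔ49 basl-2 (limma adjusted p = 0.000501) and -1.04 ± 0.11 in SPCHΔ49 (adjusted p = 0.000562). At this level the added 1 shrinks the difference, and with 0.1 added instead the log2 fold changes were -2.28 and -2.16. SKOR also overlaps 1 annotated gene on the opposite strand.

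Most markers of stele and xylem were lower in the transgenic lines as well. Of 8 listed stele and xylem markers, 7 fell in SPCHΔ49 basl-2 and 6 in SPCHΔ49, beside 21.6% and 17.3% of all genes. The median of the 8 markers was 50.1% and 41.6% of WT. Without WT replicate 2 only 3 of them were called in each line, and 4 and 3 without WT replicate 1. ATHB8, a procambium factor, and WOL, a cytokinin receptor of the stele, passed the test in both lines. The level of WOL was 1.41, 0.979 and 1.84 in SPCHΔ49 basl-2, 1.63, 2.22 and 3.27 in SPCHΔ49, and 8.41 and 10.6 in WT. The endodermis markers had medians of 1.65% and 3.86% of WT, and of 10 listed ones 7 fell in SPCHΔ49 basl-2 and 9 in SPCHΔ49. Of these 10, 6 reached the listing level only in WT and could only be lower, so that 1 of the other 4 fell in SPCHΔ49 basl-2 and 3 in SPCHΔ49, whereas none of the stele and xylem markers was listed through WT alone. NRT1.5, SKOR, HKT1 and PHO1, at 4.49% to 26.2% of WT, lay between the medians of the endodermis and the stele lists. SKOR, like 6 of the 10 endodermis markers, could be listed only as a lower gene. This order is a description and adds no evidence. The part of these markers in the lower transporter levels was not tested.

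IRT1 (AT4G19690; chromosome 4, 10707344 to 10709015, plus strand), the main iron uptake transporter of the root epidermis, had the deepest loss. It was listed at 0, 0.0478 and 0 in SPCHΔ49 basl-2 and at 0, 0.238 and 0 in SPCHΔ49, against 16.1 and 27.4 in WT. The transcript was thus at 0 in 4 of 6 transgenic libraries and far below WT in the others. Its fitted log2 fold change of -4.44 ± 0.22 in SPCHΔ49 basl-2 (limma adjusted p = 2.14e-05) and -4.36 ± 0.22 in SPCHΔ49 (adjusted p = 2.23e-05) depends on the added 1, and became -7.53 and -7.14 with 0.1 added.

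Of 30 listed genes of iron uptake and its regulation other than IRT1, 19 fell and 1 rose in SPCHΔ49 basl-2, and 18 fell and 1 rose in SPCHΔ49, beside the 21.6% and 17.3% of all genes that fell. Of the 30, 13 reached the listing level only in WT, among them FIT, FRO2, IRT2, FPN2 and the 4 bHLH partners of FIT named below, and could enter only as lower genes. All 13 fell in both lines. Of the other 17 genes, 6 (35.3%) fell and 1 rose in SPCHΔ49 basl-2, and 5 (29.4%) fell and 1 rose in SPCHΔ49. Among the 17430 genes in all that did not owe their listing to WT alone, 17.4% and 12.9% fell. Without WT replicate 2, 14 of the 30 iron genes were called in SPCHΔ49 basl-2 and 12 in SPCHΔ49, against 20 and 19 with all libraries. FIT, the bHLH factor that drives IRT1 transcription, had 0.521, 0.211 and 0.0766 in SPCHΔ49 basl-2, 0.421, 0.176 and 0.409 in SPCHΔ49, and 5.45 and 5.23 in WT. It fell by -2.34 and -2.25 on the log2 scale (limma adjusted p = 0.000114 and 0.000128). FRO2, the ferric chelate reductase of the root surface, had 0.292, 0.276 and 0.164 in SPCHΔ49 basl-2, 0.322, 0.313 and 0.365 in SPCHΔ49, and 3.76 and 6.04 in WT.

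The partners of FIT, the factors BHLH38, BHLH39, BHLH100 and BHLH101, which are induced by iron shortage in leaves as well as roots, were all lower in both lines. BHLH39 had 0.127, 0.422 and 1.83 in SPCHΔ49 basl-2, 0.103, 0.205 and 0.918 in SPCHΔ49, and 36.1 and 59.6 in WT, and fell by log2 fold changes of -4.84 and -5.12 (limma adjusted p = 0.000308 and 0.000225). The log2 fold changes of the other partners ran from -2.97 for BHLH101 to -5.04 for BHLH100 in SPCHΔ49 basl-2. OPT3, which moves iron in the phloem, had 26.1, 36.7 and 41.0 in SPCHΔ49 basl-2, 33.7, 31.9 and 42.2 in SPCHΔ49, and 100.9 and 128.9 in WT, and BTS, a ligase that restrains the iron response, fell by -1.23 and -1.54. The gene that rose was FER4, a ferritin that stores iron in plastids, with 53.0, 40.2 and 35.2 in SPCHΔ49 basl-2, 41.7, 41.3 and 52.1 in SPCHΔ49, and 17.3 and 18.7 in WT. Its log2 fold change was 1.18 and 1.27 (limma adjusted p = 0.00339 and 0.00278). FER1, another ferritin, had 550.8, 324.4 and 480.2 in SPCHΔ49 basl-2, 382.9, 280.2 and 417.7 in SPCHΔ49, and 375.5 and 158.2 in WT and did not pass (adjusted p = 0.130 and 0.341). IRT2 and FPN2, root transporters at 1 to 3 in WT, were listed at 0 in every SPCHΔ49 basl-2 library.

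**Figure D2:**
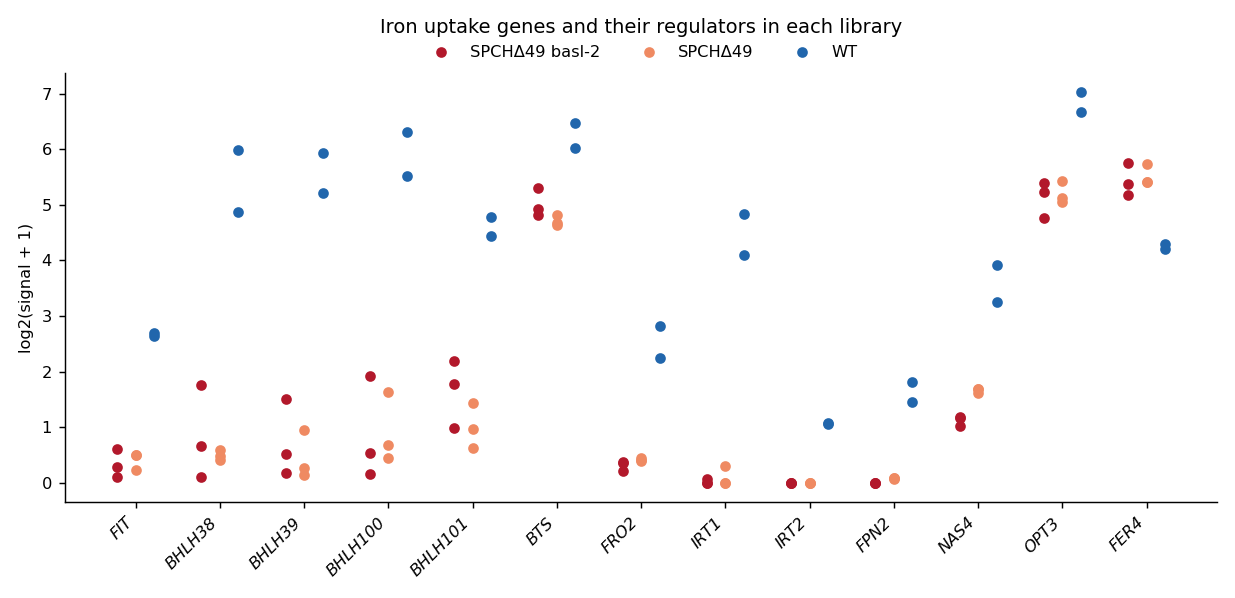
Level on the log2(signal + 1) scale of 13 iron genes in each library, points coloured by genotype (SPCHΔ49 basl-2, SPCHΔ49, WT from left to right for each gene). For FIT, its 4 bHLH partners and IRT1 every transgenic library is below both WT libraries, and for FER4 every one is above. FIT, the 4 partners and IRT1 reached the listing level only in WT and could be listed only as lower genes.

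PHT1;1 and PHT1;4, the main high-affinity phosphate transporters of the root surface, parted from the xylem transporters in that their level varied widely between libraries of a line. Both are induced by phosphate shortage through the factor PHR1, whose binding site is called P1BS. The sequences from 250 bases before to 10 bases after the annotated gene start are shown for both, and for SPX3, a phosphate sensor gene with the widest spread among transgenic libraries of the listed phosphate genes, because they differ in matches to this site. They were read from the RefSeq TAIR10.1 genome by locus tag, since the deposited tables hold no coordinates. Capitals mark matches to GNATATNC, which is its own reverse complement, so both strands are covered at once. The windows are chr2:16256907-16257166 (plus strand) for PHT1;4, chr2:18606160-18606419 (plus strand) for SPX3 and chr5:17402149-17402408 (minus strand) for PHT1;1.
PHT1;4: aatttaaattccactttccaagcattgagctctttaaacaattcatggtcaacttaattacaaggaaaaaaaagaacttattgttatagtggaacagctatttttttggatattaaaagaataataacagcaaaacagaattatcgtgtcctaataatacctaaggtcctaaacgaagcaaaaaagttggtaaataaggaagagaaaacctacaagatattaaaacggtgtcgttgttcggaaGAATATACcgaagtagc
SPX3: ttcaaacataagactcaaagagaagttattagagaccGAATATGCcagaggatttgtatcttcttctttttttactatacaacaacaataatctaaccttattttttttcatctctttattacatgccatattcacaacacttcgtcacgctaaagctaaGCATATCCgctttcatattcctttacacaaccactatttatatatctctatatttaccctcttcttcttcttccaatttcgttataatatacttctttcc
PHT1;1: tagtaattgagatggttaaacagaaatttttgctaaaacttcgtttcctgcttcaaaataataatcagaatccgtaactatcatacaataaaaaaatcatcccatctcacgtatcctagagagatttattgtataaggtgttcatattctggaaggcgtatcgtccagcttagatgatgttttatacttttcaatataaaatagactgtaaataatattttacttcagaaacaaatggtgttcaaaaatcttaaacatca
PHT1;4 holds 1 match, GAATATAC, which starts 7 bases before the gene start. SPX3 holds 2, GAATATGC 213 bases and GCATATCC 90 bases before the start, and PHT1;1 holds none in this window. Over windows from 250 bases before to 50 after the start, 6.25% of 27443 annotated promoters, 1 of the 10 transporters and 6 of the 26 other phosphate genes held a match. A match is a string of letters and not a measured binding site.

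PHT1;1 (AT5G43350; chromosome 5, 17399769 to 17402158, minus strand) had 9.77, 0.743 and 13.8 in SPCHΔ49 basl-2, 2.33, 9.32 and 20.3 in SPCHΔ49, and 43.1 and 33.3 in WT. All 6 transgenic libraries were below both WT libraries, but they spanned 27.3-fold among themselves. The log2 fold change was -2.58 (95% interval -5.01 to -0.15, limma adjusted p = 0.0934) in SPCHΔ49 basl-2 and -2.11 (-4.54 to 0.32, adjusted p = 0.173) in SPCHΔ49, and neither passed. PHT1;1 has near-identical neighbours, PHT1;2 and PHT1;3, which were not analysed here, and the division of reads among them makes its level uncertain.

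PHT1;4 (AT2G38940; chromosome 2, 16257157 to 16260253, plus strand) had 19.9, 4.05 and 32.5 in SPCHΔ49 basl-2, 16.1, 28.7 and 45.1 in SPCHΔ49, and 19.0 and 15.3 in WT. The lowest and the highest of the 8 values were both transgenic, 11.2-fold apart, with WT between them. Its log2 fold change was -0.25 (95% interval -2.06 to 1.56) in SPCHΔ49 basl-2 and 0.66 (-1.15 to 2.47) in SPCHΔ49, with limma adjusted p = 0.828 and 0.556. These intervals do not show that its level was alike.

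The order of the transgenic libraries recurred across phosphate genes, but was not particular to them. SPCHΔ49 basl-2 replicate 2 was the lowest of the 6 for PHT1;1 and PHT1;4, SPCHΔ49 replicate 1 was the second lowest and SPCHΔ49 replicate 3 was the highest. SPX3, which phosphate shortage induces strongly, had 16.7, 0.0854 and 22.6 in SPCHΔ49 basl-2, 1.68, 17.1 and 31.7 in SPCHΔ49, and 0.147 and 0.187 in WT. MGD3, a galactolipid synthase induced by phosphate shortage, had 14.3, 1.28 and 15.2 in SPCHΔ49 basl-2, 2.13, 16.9 and 22.5 in SPCHΔ49, and 0.377 and 0.336 in WT. SPCHΔ49 basl-2 replicate 2 was below both WT libraries for SPX3 and above both for MGD3, at 1.28 against 0.377 and 0.336. In both genes 4 of the other transgenic libraries were far above WT. Neither gene passed the test against WT (limma adjusted p = 0.195 and 0.140 for SPX3, 0.103 and 0.0797 for MGD3). Of the 19 listed phosphate genes, SPCHΔ49 basl-2 replicate 2 was the lowest transgenic library in 12, which is 63.2%, against 28.1% of 18304 genes above 0 in all 6 libraries. SPCHΔ49 replicate 3 was the highest in 11, or 57.9%, against 23.3% of all genes. Some other lists had like shares. SPCHΔ49 basl-2 replicate 2 was lowest in 60% of 15 ammonium genes, 57.1% of 7 sulfate genes and 62.5% of 8 stele and xylem markers. It was lowest in none of the leaf photosynthesis or guard cell markers. Over all genes, its deviations from the genotype means correlated at 0.772 with those of SPCHΔ49 replicate 1. The labels give no batch, plate or date that separates these libraries.

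Among the 19 phosphate genes, 4 rose and 4 fell in SPCHΔ49 basl-2, and 3 rose and 4 fell in SPCHΔ49. Among all genes, 12.6% rose and 21.6% fell in SPCHΔ49 basl-2, and 9.90% rose and 17.3% fell in SPCHΔ49. The 4 falls, 21.1% of the 19, were near these shares. The phosphate counts dropped to 2 in all in SPCHΔ49 basl-2 without WT replicate 1 and to 2 in SPCHΔ49 without WT replicate 2. SPX1, a sensor that holds PHR1 inactive when phosphate is ample, had 50.5, 14.04 and 56.9 in SPCHΔ49 basl-2, 45.5, 56.3 and 60.6 in SPCHΔ49, and 6.28 and 12.3 in WT. It rose by log2 fold changes of 1.85 and 2.47 (limma adjusted p = 0.0426 and 0.0185), with all 6 transgenic libraries above WT, and it did not pass in SPCHΔ49 basl-2 under 9 of 16 alternative settings (adjusted p 0.00237 to 0.245). SPX2, a further sensor, rose by 0.53 and 0.56 (adjusted p = 0.00711 and 0.00622). PHT2;1, which imports phosphate into chloroplasts, had 61.3, 58.3 and 53.9 in SPCHΔ49 basl-2, 59.4, 56.5 and 48.7 in SPCHΔ49, and 119.6 and 101.2 in WT, and fell by -0.919 and -0.995 (adjusted p = 0.00177 and 0.00126).

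**Figure D3:**
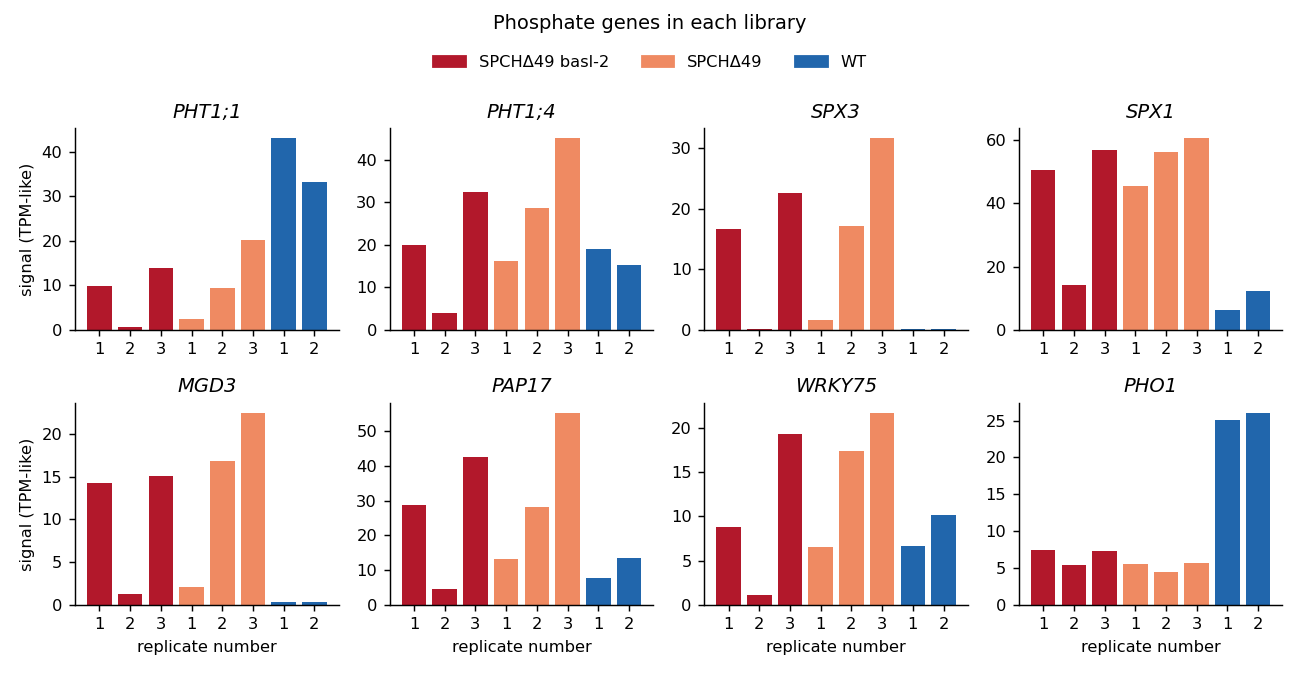
Signal (TPM-like, linear axes from 0) of PHT1;1, PHT1;4, PHO1 and 5 further phosphate genes in each library, 1 bar per library, ordered SPCHΔ49 basl-2, SPCHΔ49 and WT, with the replicate number under each bar. SPCHΔ49 basl-2 replicate 2 is the lowest transgenic bar in 7 of the 8 panels, and in the PHO1 panel the transgenic bars differ by 1.69-fold at most.

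NRT1.1 (NPF6.3, AT1G12110; chromosome 1, 4105223 to 4109601, plus strand), a nitrate transporter and sensor that is also expressed in shoots, had 49.6, 38.0 and 84.3 in SPCHΔ49 basl-2, 55.7, 57.0 and 73.3 in SPCHΔ49, and 85.4 and 59.4 in WT. The groups overlapped. The log2 fold change was -0.39 (95% interval -1.16 to 0.38, limma adjusted p = 0.391) in SPCHΔ49 basl-2 and -0.21 (-0.98 to 0.56, adjusted p = 0.671) in SPCHΔ49. A fall to the 7.45% or 4.49% of WT seen for NRT1.5 lies outside both intervals.

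Among 14 other listed nitrate transport genes, 3 rose and 5 fell in SPCHΔ49 basl-2, beside 12.6% and 21.6% of all genes. In SPCHΔ49, 2 rose and 5 fell, beside 9.90% and 17.3%. Without WT replicate 1, 3 of the 14 were called in SPCHΔ49 basl-2 and 4 in SPCHΔ49. NRT1.9, which loads nitrate into root phloem, had 3.00, 2.04 and 5.17 in SPCHΔ49 basl-2, 1.93, 2.99 and 4.20 in SPCHΔ49, and 22.6 and 25.3 in WT, and fell by -2.56 and -2.67 (limma adjusted p = 0.00162 and 0.00139). SLAH1, a stele protein of the anion channel family, had 0.0999, 0.0473 and 0.0514 in SPCHΔ49 basl-2, 0.202, 0.107 and 0.0686 in SPCHΔ49, and 1.33 and 1.45 in WT. It reached 1 only in WT, and its call was lost in both lines under quantile normalization (adjusted p = 0.0726 and 0.0995). NRT2.7, a nitrate transporter of the vacuole, rose to 55.9, 41.4 and 58.1 in SPCHΔ49 basl-2 and 76.0, 63.5 and 70.2 in SPCHΔ49, against 26.5 and 24.95 in WT (adjusted p = 0.00408 and 0.000831). NRT3.1, the partner protein that the NRT2 transporters need, had 10.6, 2.93 and 15.03 in SPCHΔ49 basl-2, 4.87, 8.65 and 14.2 in SPCHΔ49, and 27.3 and 17.4 in WT and did not pass (adjusted p = 0.140 and 0.181).

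For the 12 listed genes of nitrate assimilation and signalling, the median ratio between the highest and the lowest of the 6 transgenic libraries was 2.03. Over the 18304 genes above 0 in these libraries it was 1.61. The spread was not particular to this list, since medians of the other pathway lists ran from 1.59 (potassium and sodium) to 3.03 (iron). Of the 12 genes, 3 (25%) reached 4-fold or more, beside 10.7% of the 18304. NIA1, a nitrate reductase and 1 of these 3, had 62.4, 12.3 and 158.5 in SPCHΔ49 basl-2, 25.8, 45.6 and 80.4 in SPCHΔ49, and 272.2 and 266.2 in WT, and did not pass (limma adjusted p = 0.0903 and 0.0897). All 6 transgenic libraries were below both WT libraries. Of the 12 genes, 1 rose and 1 fell in SPCHΔ49 basl-2, beside 12.6% and 21.6% of all genes. In SPCHΔ49 none rose and 1 fell, beside 9.90% and 17.3%. None of the 12 was called in either line without WT replicate 1 or without WT replicate 2. TGA1, a factor of the nitrate response, was the gene that fell, with log2 fold changes of -1.29 and -1.46 (adjusted p = 0.0171 and 0.0129).

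AMT1;1 (AT4G13510; chromosome 4, 7858183 to 7860288, plus strand), a high-affinity ammonium transporter found in roots and leaves, had 61.7, 27.4 and 88.7 in SPCHΔ49 basl-2, 42.4, 56.8 and 72.9 in SPCHΔ49, and 43.9 and 27.8 in WT. WT lay within the range of the transgenic values. The log2 fold change was 0.59 (95% interval -0.53 to 1.71, limma adjusted p = 0.368) in SPCHΔ49 basl-2 and 0.66 (-0.46 to 1.79, adjusted p = 0.341) in SPCHΔ49. A long noncoding RNA is annotated on the opposite strand of this gene, and its reads cannot be told apart without strand information.

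Its root paralogs AMT1;3 and AMT1;2 were both lower than WT in the transgenic lines, and the difference between their fold changes and that of AMT1;1 was not tested. AMT1;3, a root epidermis ammonium transporter, had 0.371, 0.246 and 0.764 in SPCHΔ49 basl-2, 0.300, 0.477 and 0.382 in SPCHΔ49, and 10.6 and 8.48 in WT, and fell by -2.86 and -2.92 (limma adjusted p = 5.18e-05 and 4.52e-05). It reached the listing level only in WT and could be listed only as a lower gene. AMT1;2, of root endodermis and cortex, had 6.25, 4.83 and 6.97 in SPCHΔ49 basl-2, 3.56, 2.61 and 2.71 in SPCHΔ49, and 22.7 and 17.4 in WT. It fell by -1.59 and -2.41 (adjusted p = 0.00117 and 0.000163). Over the 15 listed ammonium genes other than AMT1;1, 2 rose and 7 fell in SPCHΔ49 basl-2, beside 12.6% and 21.6% of all genes. In SPCHΔ49, 1 rose and 5 fell, beside 9.90% and 17.3%. The 9 calls of SPCHΔ49 basl-2 became 5 without WT replicate 1 and 4 without WT replicate 2. ASN1, the dark-inducible asparagine synthetase, rose in both, with 2463, 2494 and 1625 in SPCHΔ49 basl-2, 686.2, 498.1 and 506.4 in SPCHΔ49, and 249.2 and 315.7 in WT. ASN2, an asparagine synthetase active in light, fell, with 28.9, 21.2 and 55.7 in SPCHΔ49 basl-2, 30.8, 43.0 and 47.7 in SPCHΔ49, and 195.7 and 195.2 in WT. The rise of ASN1 in SPCHΔ49 did not pass without either WT library or without SPCHΔ49 replicate 1 (adjusted p over the alternatives 0.00186 to 0.165).

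Other ion transporters of the root changed gene by gene. Of 11 listed potassium and sodium genes other than SKOR and HKT1, 1 rose and 1 fell in SPCHΔ49 basl-2 and 1 fell in SPCHΔ49. Among all genes, 12.6% rose and 21.6% fell in SPCHΔ49 basl-2, and 9.90% rose and 17.3% fell in SPCHΔ49. Over the fits without 1 library, 1 to 3 of the 11 were called in SPCHΔ49 basl-2 and 0 to 2 in SPCHΔ49. AKT1, the inward potassium channel of the root epidermis, had 13.7, 8.95 and 16.9 in SPCHΔ49 basl-2, 12.6, 17.8 and 20.1 in SPCHΔ49, and 18.3 and 19.1 in WT, and did not pass (limma adjusted p = 0.184 and 0.680). Of 7 sulfate genes, 2 fell in SPCHΔ49 basl-2 and 1 in SPCHΔ49, with 1 to 4 and 1 to 3 called over the fits without 1 library. SULTR1;2, the main sulfate uptake transporter of roots, had 1.78, 2.21 and 4.05 in SPCHΔ49 basl-2, 2.14, 2.34 and 3.90 in SPCHΔ49, and 16.0 and 22.5 in WT, and fell by -2.49 and -2.43 (adjusted p = 0.00135 and 0.00154).

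Of 13 listed zinc, copper, molybdenum and boron genes, 1 rose and 5 fell in each line, and 2 were called in each without WT replicate 2. Of the 5 that fell, 2 reached the listing level only in WT. Among all genes, 12.6% rose and 21.6% fell in SPCHΔ49 basl-2, and 9.90% rose and 17.3% fell in SPCHΔ49. ZIP2, a zinc and manganese transporter of the root stele, had 2.496, 1.13 and 5.57 in SPCHΔ49 basl-2, 1.68, 3.18 and 5.82 in SPCHΔ49, and 33.3 and 37.1 in WT, and fell by -3.30 and -3.09 (limma adjusted p = 0.00350 and 0.00514). HMA4, which loads zinc into the xylem, had 9.30, 6.78 and 10.2 in SPCHΔ49 basl-2, 6.61, 8.68 and 10.8 in SPCHΔ49, and 21.0 and 22.3 in WT, and fell by -1.23 and -1.25 (adjusted p = 0.00599 and 0.00650, and 0.0519 and 0.0574 without WT replicate 2, the highest over the alternatives). COPT1, a copper importer, rose by 0.55 and 0.84 (adjusted p = 0.0298 and 0.00736), and did not pass in either line when either WT library was left out.

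Between the transgenic lines, none of the 9 transporters passed the limma test in SPCHΔ49 basl-2 against SPCHΔ49, where 5.41% of all genes were called (2.05% higher and 3.36% lower), and 2 had an unadjusted p below 0.05. These were NRT1.5, with a log2 fold change of 0.58 (95% interval 0.13 to 1.04, adjusted p = 0.135), and HKT1, with -0.37 (-0.63 to -0.11, adjusted p = 0.111). The intervals of PHO1 (-0.04 to 0.65) and NRT1.1 (-0.87 to 0.51) were within 1 unit of 0, and that of AMT1;1 (-1.07 to 0.93) reached just past it. Those of PHT1;1 (-2.64 to 1.71) and PHT1;4 (-2.53 to 0.71) allow differences of several fold. SKOR (-0.26 to 0.19) and IRT1 (-0.54 to 0.38) were so far below the added 1 in both lines that their intervals are narrow whatever the fold, and they do not limit a difference between the lines. A p that misses the threshold does not show that the lines were alike. The lines differed at the same time in BASL and in SPCH level, which this design cannot tell apart.

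**Figure D4:**
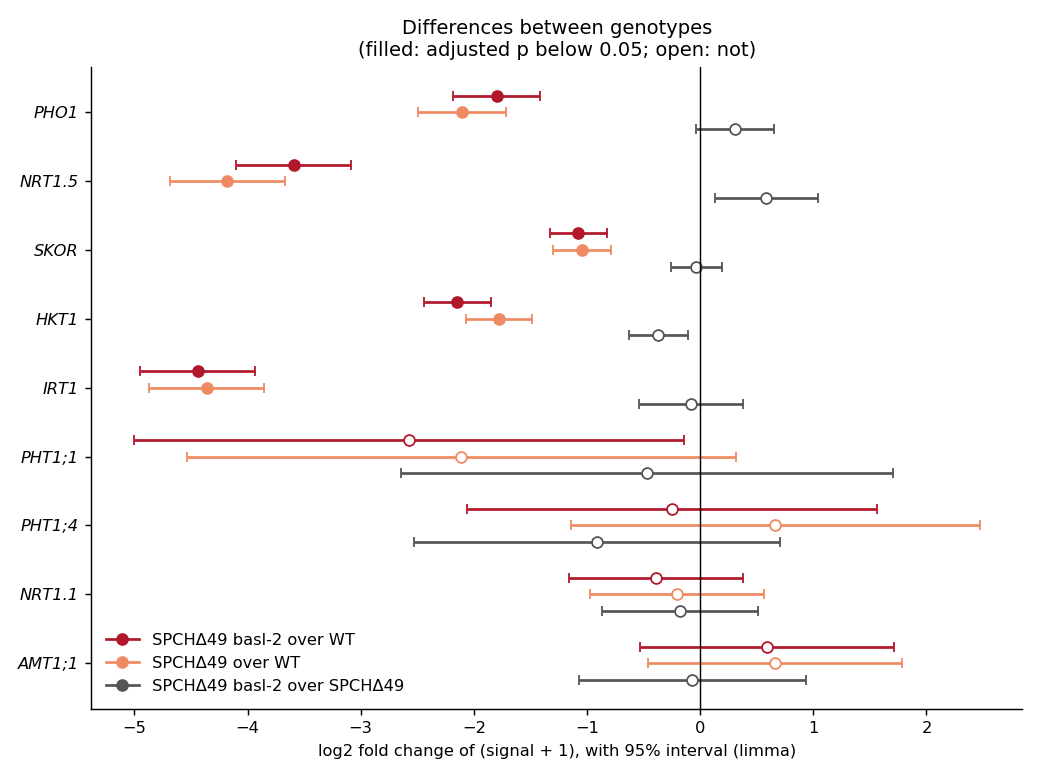
Log2 fold change of (signal + 1) for the 9 transporters in SPCHΔ49 basl-2 over WT, SPCHΔ49 over WT and SPCHΔ49 basl-2 over SPCHΔ49, with 95% intervals from limma; filled points passed at an adjusted p below 0.05 and open points did not. PHO1, NRT1.5, SKOR, HKT1 and IRT1 are filled in both comparisons with WT, and the intervals of PHT1;1 and PHT1;4 are the widest of the 9.

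The order of levels changed between the genotypes. In WT, NRT1.5 (92.98 ± 14.2) and NRT1.1 (72.4 ± 18.4) were highest and overlapped within 1 SD (n = 2), followed by PHT1;1 (38.2 ± 6.93) and AMT1;1 (35.9 ± 11.4), which overlapped each other. PHO1 (25.6 ± 0.71), IRT1 (21.8 ± 7.98) and PHT1;4 (17.2 ± 2.57) came next, each overlapping its neighbour, and HKT1 (7.76 ± 0.64) and SKOR (1.68 ± 0.07) stood apart below. In SPCHΔ49 basl-2, AMT1;1 (59.3 ± 30.7) and NRT1.1 (57.3 ± 24.1) led and overlapped. The mean of NRT1.5 (6.93 ± 2.09) was below that of PHT1;4 (18.8 ± 14.3). Its values overlapped those of PHT1;4, PHT1;1 (8.10 ± 6.69) and PHO1 (6.69 ± 1.17). In SPCHΔ49, NRT1.1 (62.0 ± 9.82) and AMT1;1 (57.3 ± 15.2) led, and NRT1.5 (4.17 ± 0.32) came just below PHO1 (5.197 ± 0.69) and overlapped it. By their means, HKT1, SKOR and IRT1 were the lowest ones in both lines, in that order, each apart from its neighbours in rank (SD, n = 3 per line).

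Patterns over the 8 libraries, compared as Pearson's r of log2(signal + 1) with the other transporters, pathway genes and markers, were most alike between PHO1 and NRT1.5 (r = 0.992), IRT1 and COBL9, a root hair gene (0.999), NRT1.5 and PRP3, a root hair wall protein (0.996), SKOR and FIT (0.994), and HKT1 and MYB36, an endodermis factor (0.991). PHT1;1 was nearest to NRT3.1 (0.983), PHT1;4 to the sulfate transporter SULTR2;2 (0.973) and then WRKY75, a factor of the phosphate response (0.967), AMT1;1 to YSL3, a metal chelate transporter (0.956), and NRT1.1 to the molybdate transporter MOT1 (0.892). These values are descriptions: the libraries fall into a WT group and a transgenic group, and any gene much lower in all transgenic libraries scores high with any other.

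**Figure D5:**
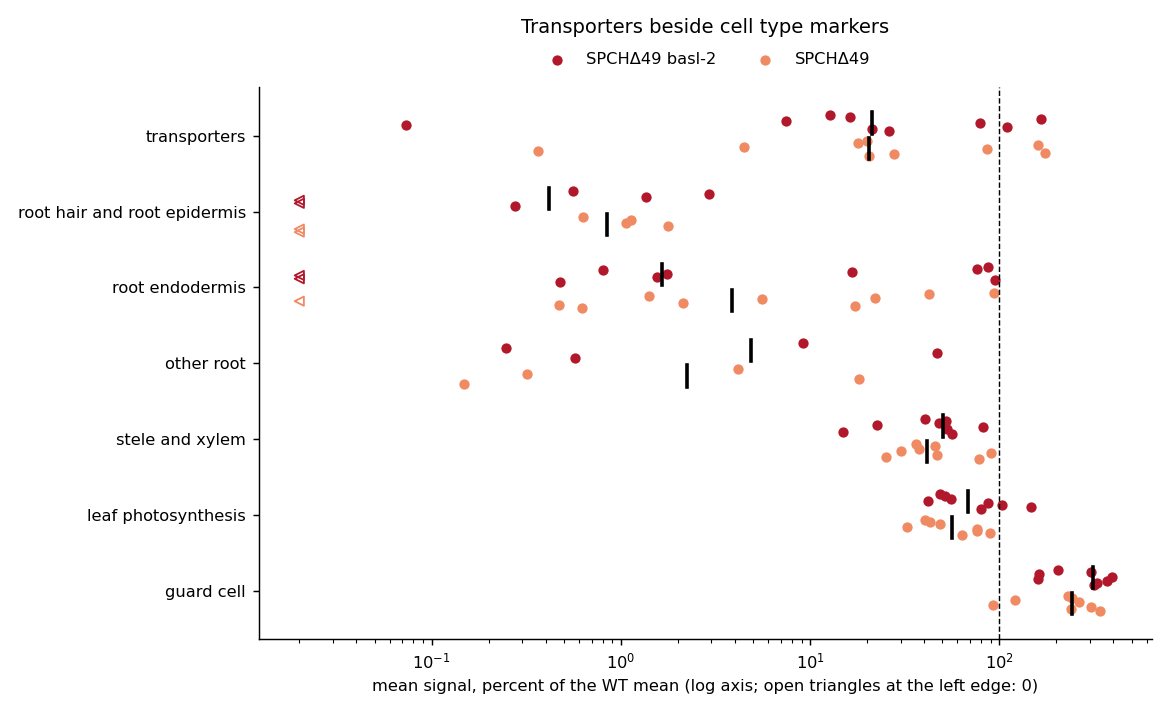
Mean signal in SPCHΔ49 basl-2 and SPCHΔ49 as a percent of the WT mean (log axis) for the 9 transporters and the listed genes of 6 marker lists; each point is 1 gene, vertical bars are list medians and open triangles at the left edge are genes at 0. The transporters spread from IRT1, at 0.0732% and 0.364% among the root hair markers, through NRT1.5 at 7.45% and 4.49%, to AMT1;1 at 165.2% and 159.9%. IRT1 and the 6 root hair markers reached the listing level only in WT and could be listed only as lower genes.

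Relative to WT, IRT1 (0.0732% in SPCHΔ49 basl-2 and 0.364% in SPCHΔ49) lay within the range of the root hair markers, whose medians were 0.417% and 0.849%. IRT1 and all 6 of these markers reached the listing level only in WT and could be listed only as lower genes. Their likeness is a description and adds no evidence. NRT1.1 (79.2% and 85.7%), PHT1;4 (109.7% and 174.8%) and AMT1;1 (165.2% and 159.9%) lay above the stele medians of 50.1% and 41.6% and above the leaf photosynthesis medians of 67.9% and 55.9%. Guard cell markers had medians of 310.4% and 240.9% of WT. All 8 rose in SPCHΔ49 basl-2 and 6 of 8 in SPCHΔ49, beside 12.6% and 9.90% of all genes. Of the transporters not listed through WT alone, NRT1.5 was the only one under 10% of WT in either line. Among all genes, 3.64% were under 10% of WT in SPCHΔ49 basl-2 and 3.54% in SPCHΔ49.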

How the data were processed

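Per the labels' protocols, RNA was extracted with the Qiagen Plant RNeasy kit and libraries were made with the TruSeq RNA v2 kit. Per the submitters' processing notes, Trimmomatic 0.38, kallisto 0.44.0 and sleuth were used; no annotation or build is named there. The deposited signal is headed TPM, but the listed genes alone sum to 852202 to 1075376 in a library, the highest being more than plain TPM allows. No source here states how the authors scaled it, and no read counts or depth can be had. Tests were run with limma (3.58.1, under R 4.3.3): log2(signal + 1) was modelled by genotype means in a joint fit of the 8 libraries, variances were moderated along an intensity trend, and p-values were adjusted by Benjamini-Hochberg across 18855 genes, each of which has a signal of at least 1 in 2 or more libraries. The fit was tested on simulated data. Alternatives were a pairwise fit, a pseudocount of 0.1, no filter or a signal of at least 5, quantile normalization, rescaled libraries, no trend, a replicate block and leaving out each library. The transporters, 8 pathway lists and 6 marker lists (196 genes, 165 listed) were chosen with earlier results of these data known. Beside the transporters, the text names from each list up to 2 higher and 2 lower genes with the lowest adjusted p, and further members with their values. Locus tags were matched to RefSeq TAIR10.1 for all 206 genes.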

Additional observations from a re-analysis of the deposited data

Results flagged for a closer look

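Of the 165 listed genes of the pathway and marker lists, 10 differed between SPCHΔ49 basl-2 and SPCHΔ49 by the limma test. This is near the 5.41% of all genes called in that comparison, so the count is not a result about these lists. Higher in SPCHΔ49 basl-2 were ASN1 (log2 fold change 1.95, adjusted p = 0.00643), GDH2, a glutamate dehydrogenase (1.71, adjusted p = 0.04997), the aquaporin TIP2;2 (1.31, adjusted p = 0.0162), SOS3, a calcium sensor of salt tolerance (1.19, adjusted p = 0.0203), AMT1;2 (0.82, adjusted p = 0.0429), NLA, a ligase that removes PHT1 proteins (0.48, adjusted p = 0.0473), and the guard cell kinase MPK12 (0.44, adjusted p = 0.0315). Lower were the glutamine synthetases GLN1;4 (-0.94, adjusted p = 0.0165) and GLN1;3 (-0.83, adjusted p = 0.0484) and the metal transporter NRAMP1 (-0.61, adjusted p = 0.0498). ASN1 passed under all 16 alternatives (adjusted p 0.00403 to 0.0481), while the other calls were lost when single libraries were left out. Over the 8 fits without 1 library, TIP2;2 passed in 6, GLN1;4 in 5 and SOS3 in 4 (highest adjusted p over the alternatives 0.0888, 0.0899 and 0.0911). AMT1;2, GLN1;3, GDH2, NRAMP1 and MPK12 each passed in 1 of the 8, and NLA in none, with highest adjusted p of 0.147 to 0.171 over the alternatives for these 6 genes.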

How the results depend on the processing

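PHO1, NRT1.5, SKOR, HKT1 and IRT1 kept their direction and call against WT in both lines under every alternative that tested them. SKOR was not tested when a signal of 5 was required, which left 4 genes called. IRT1 and SKOR reached the listing level only in WT and could enter only as lower genes, so their stability adds no evidence. Only PHO1, NRT1.5 and HKT1 were free to change direction. Against WT, 5 transporters, IRT1 and SKOR among them, were called whichever library was left out, and between the transgenic lines none. Counts over all genes depended more on single libraries: 2906 to 7052 for SPCHΔ49 basl-2 against WT, 2247 to 5636 for SPCHΔ49 against WT and 151 to 1242 for SPCHΔ49 basl-2 against SPCHΔ49, beside 6458, 5120 and 1020 with all libraries, and 485 in the last comparison when only its own libraries were fitted. The direction of transporters that had not passed changed in a few fits (log2 fold changes, none passing). NRT1.1 in SPCHΔ49 against WT ran from -0.47 to 0.051 over the fits without 1 library, the highest without WT replicate 1, and PHT1;4 in SPCHΔ49 basl-2 against WT from -0.82 to 0.55, the highest without SPCHΔ49 basl-2 replicate 2. Between the transgenic lines these ranges were -1.18 to 0.49 for PHT1;1, -0.43 to 0.40 for AMT1;1, -0.49 to 0.071 for NRT1.1 and -0.081 to 0.019 for SKOR, each highest without SPCHΔ49 basl-2 replicate 2, and -0.13 to 0.022 for IRT1, highest without SPCHΔ49 replicate 2. Without SPCHΔ49 replicate 3, PHT1;1 was at 0.15 and AMT1;1 at 0.12, and quantile normalization gave 0.037 for SKOR. Scaling moved the share of higher genes among all calls: for SPCHΔ49 basl-2 against WT it was 36.9%, with 49.0% after quantile normalization and 44.4% after rescaling; for SPCHΔ49 against WT 36.5%, 50.7% and 56.8%; and between the lines 37.9%, 35.8% and 23.3%. Rescaling moved the median of all genes to 0.12 in SPCHΔ49 against WT. Replicate numbers did not pair the samples (correlations of deviations between the transgenic lines -0.169, -0.091 and 0.756); with the replicate block, 6 transporters were called in SPCHΔ49 basl-2 against WT, PHT1;1 being the sixth (log2 fold change -3.18, adjusted p = 0.0326; range over alternatives 0.0326 to 0.302), and the counts over all genes were 8045, 6446 and 1494. The cause of these shifts was not tested. With 2 WT libraries, differences as variable as that of PHT1;1 may not be detectable.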
